A study of Mus musculus with 2 samples.

Results

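Natural killer (NK) cells were taken from single-cell RNA sequencing of mouse ear skin during IgE-mediated chronic allergic inflammation (IgE-CAI), a model in which mice receive 300 μg of IgE against the hapten TNP by vein and then 10 μg of TNP-conjugated ovalbumin in the ear skin. A cell counted as a member if it held at least 50 CPM of Ncr1 or at least 1000 CPM of Gzma, less than 100 CPM of Cd3e, Cd3g and Cd3d together, less than 100 CPM of Csf1r and less than 50 CPM of Pdgfra, where CPM is reads of a gene per 1000000 reads of that cell. Of 8359 cells with at most 20% mitochondrial reads and at least 200 genes, 391 met this rule. The groups were BALB/c wild-type (WT) mice and Ccr2-/- mice, each 3 and 5 days after challenge, all given the IgE and the TNP-conjugated ovalbumin, with cells of excised ears labelled by 1 hashtag antibody per genotype and day and sequenced together. The study's methods give male mice of 7 to 12 weeks of age. Each genotype and day was thus 1 pool, the number of mice in a pool was not given in the sources used here, and no pool of untreated skin was analysed here. A hashtag placed 338 of the 391 cells: 54 from WT and 132 from Ccr2-/- mice on day 3, and 23 from WT and 129 from Ccr2-/- mice on day 5. The other 53 cells had too few hashtag reads (20 cells) or reads of several hashtags (33 cells) and entered no comparison between pools.

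NK cells are lymphocytes without a rearranged antigen receptor. They kill target cells by releasing perforin and granzymes from granules, or through Fas ligand, and they secrete interferon-γ and chemokines. Whether they do so is set by the balance of activating receptors, such as NKp46 (Ncr1) and NKG2D (Klrk1), against inhibitory receptors of the Ly49 and NKG2A families that read MHC class I. Their development and function rest on the T-box factors Eomes and T-bet and on signals through the IL-2 and IL-15 receptor β chain. In skin they are found both as cells from blood and as resident cells, and CCR2 is a chemokine receptor through which NK cells and monocytes can enter inflamed tissue.

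The 150 bases before the RefSeq transcript start (GRCm38.p6) are shown for the gene of the gate's NK receptor, for perforin and for granzyme B, the abundant granule gene whose level ranged most widely over the pools. Capitals mark the letters TGTGGT or their reverse complement (a core RUNX motif) and CAGGAA or its reverse complement (a core ETS motif), searched on both strands. RUNX and ETS factors are known regulators of lymphocyte genes.
Ncr1, chr7:4337565-4337714, plus strand: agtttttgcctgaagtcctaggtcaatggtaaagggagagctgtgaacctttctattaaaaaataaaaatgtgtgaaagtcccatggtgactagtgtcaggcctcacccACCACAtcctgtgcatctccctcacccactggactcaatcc
Prf1, chr10:61297686-61297835, plus strand: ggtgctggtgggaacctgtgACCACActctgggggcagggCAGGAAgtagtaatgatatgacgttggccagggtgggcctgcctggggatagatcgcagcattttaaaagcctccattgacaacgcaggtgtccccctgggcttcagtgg
Gzmb, chr14:56262335-56262484, minus strand: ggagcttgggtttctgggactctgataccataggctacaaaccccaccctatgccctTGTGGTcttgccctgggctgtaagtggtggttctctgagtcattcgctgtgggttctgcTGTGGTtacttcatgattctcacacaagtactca
Among the 25 genes that led NK cells over all other cells (described further on), 17 matched a RefSeq promoter by symbol. Within 250 bases upstream, 8 of these 17 held the RUNX letters, against 15.9% of all 27025 genes with a promoter, and 9 of 17 held the ETS letters, against 28.3%. The 8 included the gate genes Gzma and Ncr1, and the 25 genes were ranked on these same cells. The shares are thus a description. The T-box letters GGTGTGA stood in 1 of the 17 (Nkg7), against 3.84% of all genes. These are matches of letters in a window and were not tested as sites.

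The gate's own values describe how the cells were chosen. Both genes were over their limit in 228 cells, Gzma alone in 146 and Ncr1 alone in 17. The lowest Gzma level among cells that entered by Gzma alone was 1073 CPM and the highest just outside was 998 CPM. For cells that entered by Ncr1 alone, the lowest level was 62.7 CPM and the highest just outside was 40.7 CPM. At the Gzma limit, of 13 cells with 1000 to 2000 CPM of Gzma, 1 held reads of at least 3 of 8 NK genes outside the gate (Nkg7, Prf1, Eomes, Klrd1, Klrk1, Il2rb, Ctsw, Ccl5), and of 20 cells with 500 to 1000 CPM, 5 did. Of all 391 members, 349 did. Members with reads of fewer than 3 of the 8 genes were 2 of 54 and 0 of 23 in WT on days 3 and 5. In Ccr2-/- they were 12 of 132 and 18 of 129. At least 50 CPM of Ptprc (CD45) was held by 53 and 23 of these WT members and by 125 and 114 of the Ccr2-/- members. Cells that entered by Gzma alone made up 22.2% and 17.4% of WT members and 35.6% and 47.3% of Ccr2-/- members on days 3 and 5, so the route of entry was not the same in the 2 genotypes. Their median depth was 13009 reads, against 24945 in cells over both limits.

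The data held 8953 barcodes and 35208 genes, and 8696 barcodes appeared in both the cDNA and the hashtag library. NK cells had median depths of 20463 to 23704 reads, 2161 to 2490 genes and 4.45% to 4.83% mitochondrial reads across pools. Summed over a pool, their reads came to 1919880 in WT day 3, 628720 in WT day 5, 3977690 in Ccr2-/- day 3 and 4016980 in Ccr2-/- day 5. WT day 5, with 23 cells, was thus the least precise pool, and 3 reads there were worth 4.77 CPM, against 0.747 CPM in Ccr2-/- day 5. Values are reads and not unique molecules, so the Poisson and Clopper-Pearson intervals given below cover counting error only.

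NK cells were a larger share of the cells in both Ccr2-/- pools than in either WT pool. They made up 3.51% (95% Clopper-Pearson interval 2.65 to 4.56) of 1537 cells in WT day 3 and 2.21% (1.41 to 3.30) of 1041 in WT day 5. In Ccr2-/- they made up 6.04% (5.08 to 7.12) of 2186 cells on day 3 and 5.49% (4.61 to 6.49) of 2349 on day 5. The Ccr2-/- share was 1.72 times the WT share on day 3 and 2.49 times on day 5, and the groups did not overlap. The mean difference was 2.90 percentage points, with p = 0.333 in a two-sided exact permutation test over the 4 pools (n = 2 and 2), which is the smallest p this design allows. Among cells with at least 50 CPM of Ptprc (CD45), the shares were 7.64% and 4.83% in WT against 15.8% and 10.7% in Ccr2-/- on days 3 and 5. Set against T cells of the same pool (at least 300 CPM of the 3 Cd3 genes), there were 1.20 and 1.53 NK cells per T cell in WT and 1.63 and 1.5 in Ccr2-/-. With the gate on Ncr1 alone, a choice made after seeing the data, the shares were 2.73% (1.98 to 3.68) and 1.83% (1.10 to 2.84) in WT and 3.89% (3.12 to 4.79) and 2.89% (2.25 to 3.66) in Ccr2-/-, the mean difference was 1.11 points, and the intervals of the 2 genotypes overlapped on each day. A share of a pool depends on all its other cells too, and more NK cells cannot be told apart from fewer cells of another kind.

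**Figure D1:**
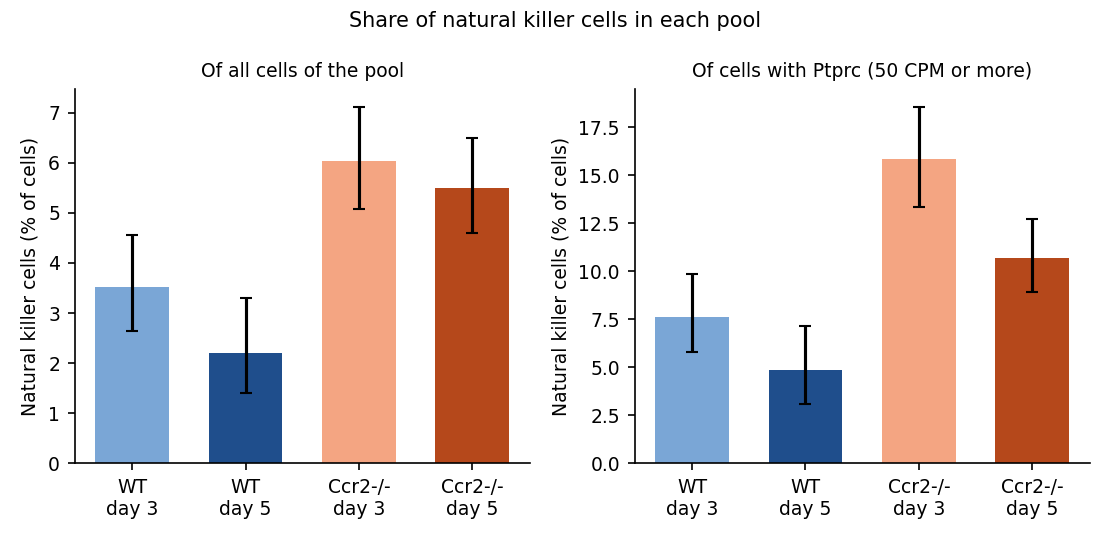
NK cells as a percentage of all cells (left) and of cells with Ptprc (right) in each pool, with bars giving the share and lines the 95% Clopper-Pearson interval. Both Ccr2-/- pools (6.04% and 5.49% of all cells) lay above both WT pools (3.51% and 2.21%).

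Ccr2 (chr9:124101950-124113557), the gene targeted in the knockout, was high in WT NK cells and low in Ccr2-/- NK cells. WT NK cells held 324 CPM (95% Poisson interval 300 to 351) on day 3 and 851 CPM (780 to 926) on day 5, against 60.3 (52.9 to 68.5) and 50.8 (44.1 to 58.3) CPM in Ccr2-/-. In cells thinned to 5000 reads, 56.6% and 82.6% of WT NK cells held a Ccr2 read on days 3 and 5, against 12.7% and 12% of Ccr2-/- NK cells. Fibroblasts, which should lack it, held one in 0.72% to 2.08% of thinned cells. They were taken as cells high in Pdgfra without any Ptprc read. This choice can leave out fibroblasts with reads carried over from leukocytes, so their share may be too low as a background. The share in Ccr2-/- NK cells lay above that of fibroblasts, but the fibroblasts were deeper before thinning, with medians of 48000 to 73776 reads. Reads carried over from other cells were not tested as a source. Which part of the transcript the Ccr2 reads of Ccr2-/- NK cells covered was not analysed here. T cells had the same order, at 855 and 1160 CPM in WT against 81.3 and 119 CPM in Ccr2-/-. In every pool the labels and this gene were in the same order, and the mean WT level of NK cells was 10.6 times the mean Ccr2-/- level (5.84 times without WT day 5 and 15.3 times without WT day 3).

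The cells carried the NK programme in all 4 pools. Beside the gate genes, Prf1 (perforin, chr10:61297833-61304680) stood at 979 to 1304 CPM, Nkg7, a granule membrane protein of killer cells, at 1199 to 1586 CPM, Eomes (chr9:118478212-118486132) at 397 to 818 CPM, and Klrc1, which encodes the inhibitory receptor NKG2A (chr6:129666015-129678973), at 169 to 310 CPM. All other cells of the same pools had at most 9.03 CPM of Prf1, 9.04 of Nkg7, 1.86 of Eomes and 1.70 of Klrc1. Ncr1 and Gzma, also markers of the cell type, were fixed by the gate and say nothing further. Cd3e, part of the T cell receptor complex that the gate required to be low, was at 0 reads in 3 pools and at 0.754 CPM in Ccr2-/- day 3. Cd28 and Trbc2, T cell genes outside the gate, stood at 131 to 456 and 129 to 282 CPM, and Lat at 50.0 to 87.5 CPM. T cells held 85.4 to 361 CPM of Cd28. Cd4, Cd8a, Cd8b1, Cd5, Cd6 and Themis stood at no more than 5.73 CPM in any pool. Pdcd1, Il22 and Il23r, genes of T cells and type 3 innate lymphoid cells outside the gate, had no read in any of the 338 cells. Taking 3 counts as the limit of a count of 0, cells with a read could still be up to 13.0% of the 23 cells of WT day 5 and up to 2.33% of the 129 cells of Ccr2-/- day 5. This limits cells with a read, not cells that express the gene.

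Ranked by the smallest ratio over pools of NK cells to all other cells, among genes of at least 100 CPM in each pool, the 25 leading genes fell into a few families. Because the gate was set on the same cells, this ranking is a description. Killer genes led: Gzma (chr13:113093825-113100981), Eomes and Ncr1 (chr7:4337724-4345164) were at the head, and Prf1, Nkg7, Ctsw (a cathepsin of killer lymphocytes) and Fasl (Fas ligand) were among the first 9. Eomes was at least 141 times, Prf1 at least 130 times and Nkg7 at least 120 times the level in all other cells. Il2rb, the IL-2 and IL-15 receptor β chain, was at least 100 times. Of the 25, 7 were lectin-like receptor genes that lie within 0.760 Mb of chromosome 6 (chr6:129577905-130337574, GRCm38): Klra3, Klrc1, Klri2, Klra9, Klrd1, Klre1 and Klrk1. Stat4, which relays IL-12 signals, the adaptor genes Sh2d1a and Sh2d2a, and the secreted products Ccl5 and Ifng completed most of the list. Trbc1 (T cell receptor β constant region) was also on it, at 564 to 878 CPM, in the same range as in T cells (447 to 910 CPM), while Trac stood at 13.4 to 27.4 CPM against 364 to 1295 CPM in T cells. Trdc, the δ constant region, stood at 121 to 207 CPM, and Cd163l1, a gene of γδ T cells, was near 0. Germline transcripts of the β and δ constant regions are known in NK cells.

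**Figure D2:**
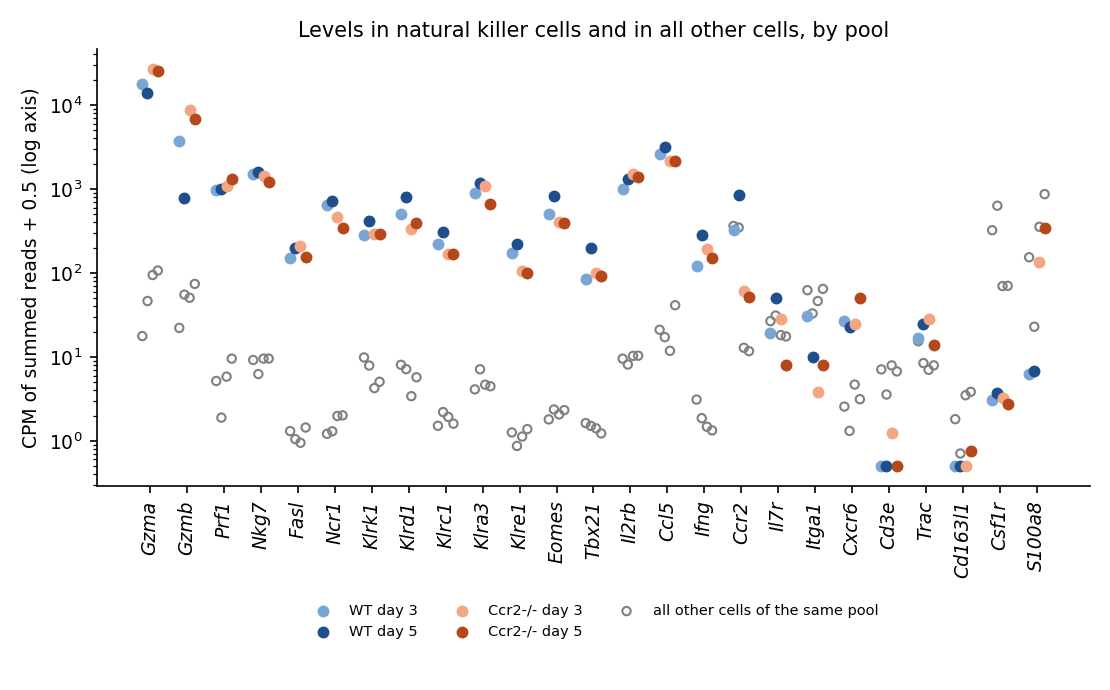
Level of 25 genes in NK cells (filled points, 1 per pool) and in all other cells of the same pool (open grey circles), as CPM of summed reads plus 0.5 on a log axis. Killer, receptor and transcription factor genes stood far above the other cells in every pool, Ccr2 split by genotype (324 and 851 against 60.3 and 50.8 CPM), and Cd3e and Cd163l1 lay at the bottom of the axis.

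For genotype, reads of the NK cells were summed per pool and fitted with edgeR's quasi-likelihood test with day as a covariate, which leaves 1 residual degree of freedom. None of 11644 genes passed an adjusted p of 0.05 (0%), 486 had an unadjusted p under 0.05, and DESeq2 called 16 (6 higher and 10 lower in Ccr2-/-). With 1 pool left out, edgeR called 284 genes without WT day 3, 2 without WT day 5, 24 without Ccr2-/- day 3 and 7 without Ccr2-/- day 5, so the count rests on which pools enter. Ccr2 itself, with a log2 difference of -3.21 ± 0.44 (SE), had an adjusted p of 0.41 by edgeR with Benjamini-Hochberg adjustment. Here and below, SE is the size of the log2 difference divided by the square root of the test's F value, not a fitted standard error. On simulated reads of the same size, the fit found 146 of 200 genes changed 4-fold and 200 of 200 changed 16-fold. The simulation gave every gene the same fixed spread, kept pools alike otherwise and changed only genes above the median count. It therefore does not give the power of the fit in these 4 pools. Since no gene passed, the levels below are given per pool, and a gene is called higher or lower only as a statement on these 4 pools. As a size rule with no test, genes with at least 50 CPM in 1 genotype on each day and a ratio of 3 or more the same way on both days were counted: of 3695 such genes, 9 were higher (0.244%) and 10 lower (0.271%) in Ccr2-/-. The median log2 ratio of all 3695 was -0.00 on day 3 and 0.03 on day 5.

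Gzmb (chr14:56258838-56262260), the granzyme that starts the death cascade in target cells, ranged more widely over the pools than any other granule gene with at least 100 CPM in each pool. It stood at 3676 CPM in WT day 3, 781 CPM in WT day 5, 8736 CPM in Ccr2-/- day 3 and 6853 CPM in Ccr2-/- day 5. Both Ccr2-/- pools lay above both WT pools, by 2.38 times on day 3 and 8.77 times on day 5, and the lowest pool was WT day 5. The difference was spread over cells. The median cell held 1747 and 451 CPM in WT against 6530 and 2938 CPM in Ccr2-/-, and cells with at least 5000 CPM were 25.9% and 4.35% of WT NK cells against 57.6% and 38.0% of Ccr2-/- NK cells. Between 5 and 21 cells per pool had no Gzmb read. Among the cells with at least 50 CPM of Ncr1, whatever their Gzma, the order was the same, at 3600 and 659 CPM in WT against 8645 and 6397 CPM in Ccr2-/-. All other cells had 21.6 to 73.5 CPM. The edgeR fit gave a log2 difference of 2.22 ± 0.42 (SE) with an unadjusted p of 0.00105 and an adjusted p of 1.0 after Benjamini-Hochberg adjustment over 11644 genes. The log2 difference was positive in all 18 alternatives (1.08 to 3.39), and the adjusted p passed 0.05 in 4 of them.

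**Figure D3:**
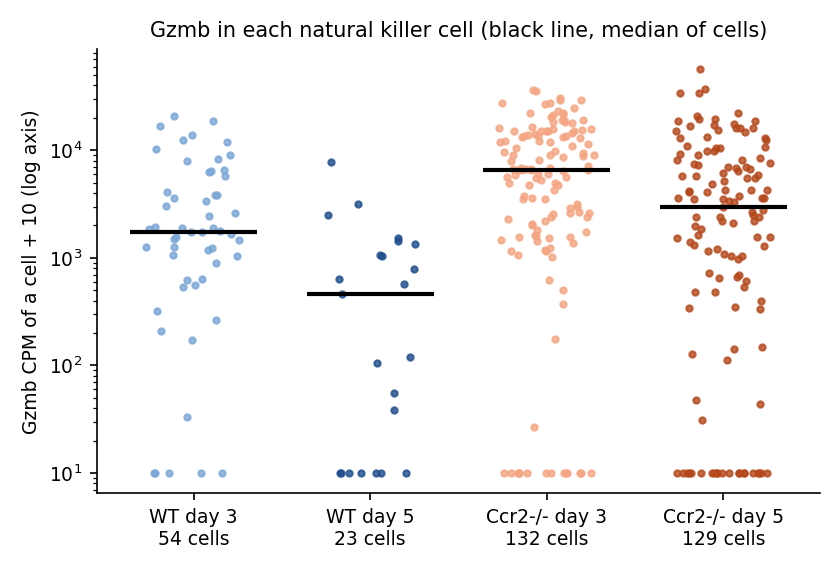
Gzmb in each NK cell, as CPM of the cell plus 10 on a log axis, by pool; points are cells and the black line is the median cell. The medians were 1747 and 451 CPM in WT against 6530 and 2938 CPM in Ccr2-/- on days 3 and 5, and each pool held both cells without a read and cells above 5000 CPM.

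Of the 17 genes of the granule list, 14 had at least 50 CPM in 1 genotype on each day, and none of the 14 was 3-fold apart on both days (background 0.244% and 0.271%). The list's median log2 ratio was 0.04 on day 3 and -0.24 on day 5, and in the fit 16 were tested and none was called, with 2 at an unadjusted p under 0.05 (486 of all 11644 genes). Prf1 stood at 979 and 997 CPM in WT against 1083 and 1304 CPM in Ccr2-/-, ratios of 1.11 and 1.31. Nkg7 stood at 1499 and 1586 CPM in WT against 1431 and 1199 CPM in Ccr2-/-. The genotypes thus differed little in both genes. Fasl, the death ligand, stood at 150 and 197 CPM in WT against 207 and 154 CPM in Ccr2-/-, with overlapping groups. Srgn, the proteoglycan that holds granzymes in the granule, stood at 731 and 728 CPM in WT against 1097 and 1280 CPM in Ccr2-/-, but other cells held as much (1021 to 1579 CPM). Serpinb9, an inhibitor of granzyme B, stood at 473 and 727 CPM in WT against 416 and 388 CPM in Ccr2-/-. It was highest in WT day 5, the pool in which Gzmb was lowest. Single days differed more for some of the list: Rab27a, which moves granules to the membrane, stood at 32.8, 7.95, 54.3 and 70.9 CPM, Lamp1 at 168 and 235 CPM in WT against 121 and 113 CPM in Ccr2-/-, and Serpinb6b at 411, 721, 393 and 310 CPM. Gzma, by which many cells were chosen, stood at 17731 and 13882 CPM in WT against 26694 and 25219 CPM in Ccr2-/-, and is not tested.

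Beside Gzmb on chromosome 14 lie the genes of granzymes C to G and N, 7 genes in all within 145 kb (chr14:56117626-56262260). Granzymes C to G are rodent serine proteases seen in strongly stimulated killer cells. Reads of Gzmc, Gzmd, Gzme, Gzmf or Gzmg were found in 2 of 54 NK cells of WT day 3, in 0 of 23 of WT day 5 (3 counts would be 13.0%), in 11 of 132 of Ccr2-/- day 3 and in 24 of 129 of Ccr2-/- day 5. As shares, counted without thinning, these were 3.70% (Clopper-Pearson 0.452 to 12.7), 0% (0 to 14.8), 8.33% (4.23 to 14.4) and 18.6% (12.3 to 26.4). The last pool stood out also in depth of expression: 17 of its 24 cells held at least 2 of the genes and 3 held all 5, against 1 and 2 cells with at least 2 genes in WT day 3 and Ccr2-/- day 3. Summed, the 5 genes came to 229, 0, 71.4 and 739 CPM in the same order of pools, but 1 cell gave 79.5% of these reads in WT day 3 and 71.1% in Ccr2-/- day 3, against 39.6% in Ccr2-/- day 5. Of the cells with any of these genes, 15 of 24 in Ccr2-/- day 5 also expressed division genes, and their median depth was 60744 reads. Gzmd was 1 of 3 genes picked by the size rule once a level at least that of all other cells was required, at 16.1, 0, 51.3 and 206 CPM. For Gzmd, 1 cell gave 81.4% of its reads in Ccr2-/- day 3 and another all of those in WT day 3, and without the first the Ccr2-/- day 3 level was 9.69 CPM, below WT day 3, so the pick rests on that cell. The other 2 higher genes were 2410002F23Rik (6.77 and 14.3 CPM in WT, 69.1 and 79.9 CPM in Ccr2-/-) and Gm45716 (22.9 and 27 against 99.8 and 110 CPM). The 6 lower genes were Esco2, C2cd3, Gm33104, Ptpn4, Zup1 and Baz2b. In WT day 5, 1 cell gave from 25.9% (Baz2b) to 97.2% (C2cd3) of the reads of each. Gzme, Gzmf and Gzmg were added to Gzmc and Gzmd after their values were seen, and reads among these near-identical genes may be split uncertainly.

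Activating receptors and their adaptors had no 3-fold difference on both days, but most had a negative log2 difference in the genotype fit. A positive one was found for 4 of 19, where 6629 of the 11644 genes had one. The median was -0.46, against 0.13 for all genes tested. By day, the median log2 ratio of those abundant enough for the size rule was 0.03 on day 3 and -0.74 on day 5. Of 19 genes, 15 had at least 50 CPM in 1 genotype on each day, none was 3-fold apart on both days, and 0 of 19 passed the fit, with 4 at an unadjusted p under 0.05 (486 of all 11644 genes). Klrk1 (NKG2D) stood at 280 and 409 CPM in WT against 286 and 292 CPM in Ccr2-/-, and the NKG2D adaptor Hcst (DAP10) at 192, 342, 211 and 218 CPM. On day 3 these were nearly the same in the genotypes. Tyrobp (DAP12), which carries signals of several activating receptors, stood at 1291 and 1587 CPM in WT against 1105 and 1087 CPM in Ccr2-/-. Fcer1g, the Fc receptor γ chain that also serves NKp46, stood at 943, 789, 992 and 1080 CPM. Klrd1 (CD94), partner of the NKG2 receptors, was lower in both Ccr2-/- pools, at 332 and 396 CPM against 503 and 790 CPM. Cd226 (DNAM-1), a receptor for nectin-like ligands, was also lower in both, at 41.2 and 33.9 CPM against 92.7 and 107 CPM, and Ncr1, a gate gene, stood at 634 and 711 CPM in WT against 459 and 341 CPM in Ccr2-/-. Fcgr3, the low-affinity IgG receptor, was lower in NK cells (15.3 to 74.8 CPM) than in all other cells (92.1 to 344 CPM).

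Of 24 inhibitory receptor genes, 8 had at least 50 CPM in 1 genotype on each day, and 1, Lilrb4a, was 3-fold higher in Ccr2-/- on both days (background 0.244%). It stood at 90.6 and 42.9 CPM in WT against 278 and 157 CPM in Ccr2-/-, but all other cells held 204 to 291 CPM. Its edgeR log2 difference was 1.76 ± 0.37 (SE) with an adjusted p of 1.0. Lag3, which binds MHC class II, stood at 126 and 138 CPM in WT against 222 and 319 CPM in Ccr2-/-, at least 1.76 times higher on each day, where all other cells held 10.2 to 15.8 CPM. In thinned cells, 17.0% and 17.4% of WT NK cells and 27.8% and 34.4% of Ccr2-/- NK cells held a Lag3 read. Klrc1 and Klre1, in contrast, were lower in both Ccr2-/- pools, Klrc1 at 169 and 169 CPM against 220 and 310 CPM, and Klre1 at 105 and 100 CPM against 173 and 219 CPM. Klra3, a Ly49 gene, was found in part of the cells. It stood at 905, 1174, 1090 and 660 CPM, with reads in 60.4%, 43.5%, 65.1% and 44.0% of thinned cells. Ly49 genes are known to be expressed by subsets of NK cells. The reads were aligned to a C57BL/6J-based reference, BALB/c mice carry another set of Ly49 genes, and near-identical copies share reads, so the assignment within this family is uncertain.

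Of 18 transcription factor genes, 12 were abundant enough by the size rule and none was 3-fold apart on both days. In the fit, 18 were tested, and 0 had an unadjusted p under 0.05. Some were far apart on a single day: Prdm1 (Blimp-1) stood at 65.1 and 4.77 CPM in WT against 81.2 and 49.3 CPM in Ccr2-/-, and Ikzf2 (Helios) at 1.56, 65.2, 7.04 and 4.48 CPM. Zfp683 (Hobit), below the limit of the size rule, stood at 4.17 and 6.36 CPM in WT against 18.4 and 27.1 CPM in Ccr2-/-. Eomes stood at 496 and 818 CPM in WT against 407 and 397 CPM in Ccr2-/-, and Tbx21 (T-bet) at 84.9, 197, 99.1 and 91.6 CPM. Both were highest in WT day 5. Id2, which holds innate lymphoid cells to their lineage, stood at 1010 to 1327 CPM and Irf8 at 1034 to 1387 CPM, with overlapping groups. Irf8 stood at 38.4 to 162 CPM in all other cells. Nfil3, needed for NK development, stood at 217 and 197 CPM in WT against 265 and 304 CPM in Ccr2-/-. Gata3 stood at 81.3 and 95.4 CPM in WT against 119 and 159 CPM in Ccr2-/-.

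The 14 genes listed for tissue residence were mixed in level and summed to 3501 to 4527 CPM. Itga1 (CD49a), used to define resident NK cells and type 1 innate lymphoid cells, stood at 3.27 to 30.2 CPM, and T cells held 0 to 11.95 CPM. Cxcr6 stood at 22.3 to 50.0 CPM against 138 to 335 CPM in T cells, Il7r at 7.47 to 49.3 CPM against 355 to 954 CPM and Cd69 at 94.8 to 152 CPM against 400 to 620 CPM. For Cxcr6, Il7r and Cd69 the NK cells of each pool thus lay below its T cells. Rgs1, a brake on chemokine signals that is high in tissue lymphocytes, stood at 1967 to 2484 CPM and Rgs2 at 979 to 1759 CPM, where T cells held 1259 to 2282 and 1360 to 2178 CPM. The 9 genes listed for circulation and maturation were mixed as well: Itga2 (CD49b) stood at 28.6, 108, 57.3 and 47.1 CPM, Itgam (CD11b) at 59.9, 243, 89.5 and 73.9 CPM and Klf2, a factor that keeps lymphocytes circulating, at 414, 519, 421 and 300 CPM. Itga2 and Itgam were highest in WT day 5. Other genes of that list were low or at 0, with S1pr1 at 0 to 2.24 CPM, Cx3cr1 at 0 to 11.3 CPM, Ccr7 at 0 to 11.1 CPM and S1pr5 at 1.01 to 44.5 CPM.

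Among secreted products, Ccl5 stood at 2613 and 3144 CPM in WT against 2120 and 2148 CPM in Ccr2-/-, with all other cells at 11.3 to 40.7 CPM. It was lower in both Ccr2-/- pools (edgeR log2 difference -0.39 ± 0.16, SE, unadjusted p of 0.0443, adjusted p of 1.0). Ifng (chr10:118441046-118445892) stood at 121 and 280 CPM in WT against 190 and 149 CPM in Ccr2-/-, so the groups overlapped. NK cells held 50.7% and 65.7% of all Ifng reads of the WT pools and 83.1% and 83.3% of those of the Ccr2-/- pools, although they were at most 6.04% of the cells. The chemokine genes Ccl3 (220, 369, 354 and 439 CPM) and Ccl4 (535, 1546, 920 and 796 CPM) overlapped as well, and Xcl1, a chemokine for cross-presenting dendritic cells, was highest in WT day 5 (30.2, 103, 25.1 and 52.8 CPM). Csf2 (GM-CSF) stood at 3.65 and 0 CPM in WT against 51.0 and 38.3 CPM in Ccr2-/-, but no more than 5.56% of thinned cells in any pool held a read. Of 19 genes in the list 5 were abundant enough, and none was 3-fold apart on both days.

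Among 22 cytokine and chemokine receptor genes, 12 were abundant enough, and Ccr2 was the 1 that was 3-fold lower on both days (background 0.271%). Il2rb stood at 1000 and 1317 CPM in WT against 1492 and 1366 CPM in Ccr2-/-. Il12rb2, the signalling chain of the IL-12 receptor, was higher in both Ccr2-/- pools, at 110 and 115 CPM against 49.0 and 66.8 CPM. The IL-18 receptor gene Il18rap was lower in both, at 155 and 131 CPM against 242 and 294 CPM. Cxcr4, the receptor for Cxcl12, stood at 92.7, 297, 50.0 and 99.8 CPM. For Ccr2, as for Il18rap, both Ccr2-/- pools lay below both WT pools, but Ccr2 alone passed 3-fold.

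**Figure D4:**
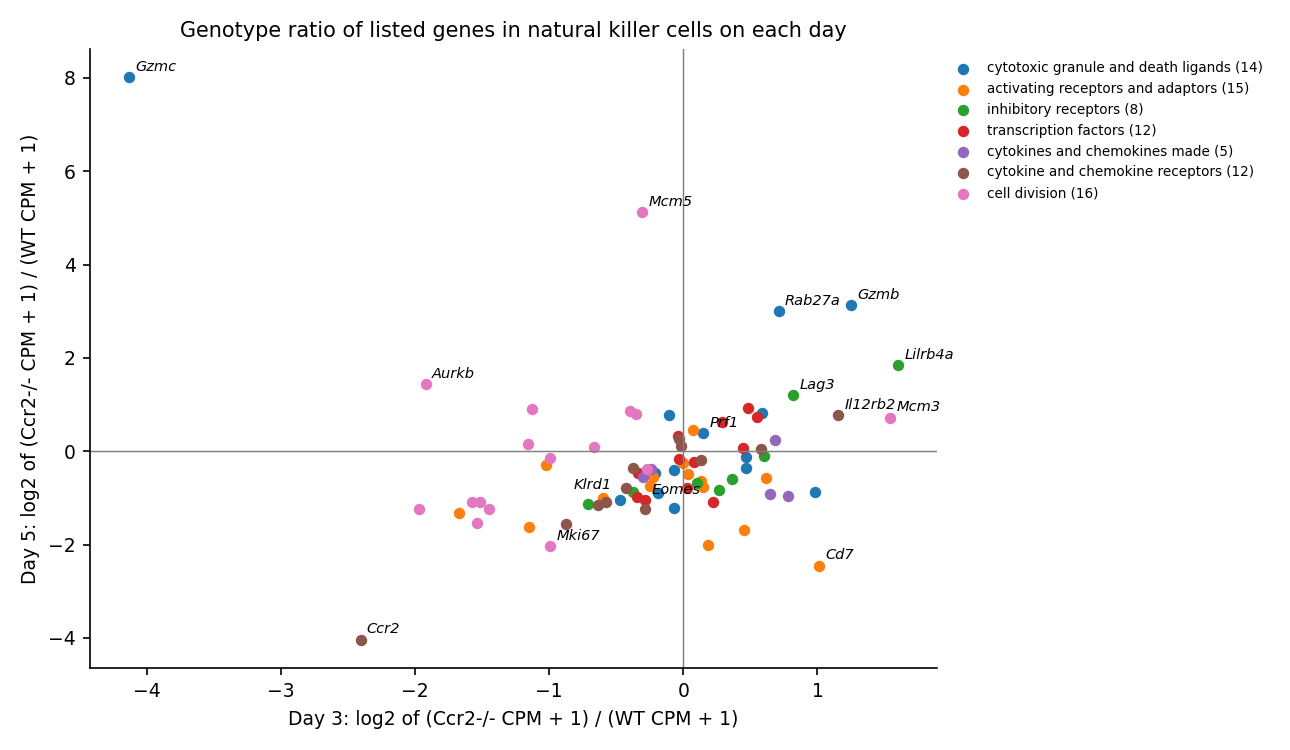
Genotype ratio of the listed genes in NK cells on day 3 (horizontal) and day 5 (vertical), each as log2 of Ccr2-/- CPM plus 1 over WT CPM plus 1; points are genes, coloured by list. Ccr2 lay in the lower left (5.31 and 16.5 times lower), and Gzmb (2.38 and 8.77 times higher) and Lilrb4a (3.04 and 3.6 times higher) lay in the upper right.

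A part of the NK cells of every pool held reads of at least 3 of 13 mitosis genes, and these are called dividing below. In WT day 5 they were 4 cells, while 0 cells of that pool fell into the group led by division genes (described further on). Cells with reads of at least 3 of 13 mitosis genes were 10 of 54 (18.5%, Clopper-Pearson 9.25 to 31.4), 4 of 23 (17.4%, 4.95 to 38.8), 17 of 132 (12.9%, 7.68 to 19.8) and 24 of 129 (18.6%, 12.3 to 26.4), in the order WT day 3 and day 5, then Ccr2-/- day 3 and day 5. The intervals overlapped in all pools. These cells were also the deeper ones, with median depths of 36500 to 82699 reads against 16601 to 23307 reads in the rest, and they gave 25.0% to 46.2% of a pool's NK reads. The summed levels therefore weighed them more than their number. Mki67 stood at 292 and 670 CPM in WT against 146 and 163 CPM in Ccr2-/-, while Pcna, a clamp of DNA replication, stood at 767, 296, 580 and 536 CPM and Mcm5, part of the replication helicase, at 249, 3.18, 201 and 146 CPM. Mcm3, another gene of the helicase, stood at 55.2, 95.4, 163 and 158 CPM. The 4 genes had no common order: Pcna and Mcm5 were lowest in WT day 5 and Mcm3 in WT day 3. None of the 20 division genes passed the genotype fit, with 8 at an unadjusted p under 0.05 against 486 of all 11644 genes. A positive log2 difference was found for 4 of the 20, where 6629 of the 11644 had one. By the size rule, none of 16 was 3-fold apart on both days. Gzmb in dividing cells stood at 3179 and 216 CPM in WT against 8728 and 8410 CPM in Ccr2-/-, and in the rest at 4104, 969, 8739 and 5856 CPM, so the order of the genotypes was the same in both.

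Of 12 glycolysis and oxygen genes, 11 had a positive log2 difference in the fit, where 6629 of all 11644 genes did, and none was called. An unadjusted p under 0.05 was found for 2 of the 12, against 486 of the 11644. Ldha (lactate dehydrogenase) stood at 841, 302, 828 and 937 CPM, so that only WT day 5 stood apart. Of 15 interferon response genes, 5 were abundant enough and none was 3-fold apart on both days. Irf7, induced by type I interferon, stood at 97.9 and 162 CPM in WT against 33.7 and 35.6 CPM in Ccr2-/-. Of the 13 immediate early genes, which tissue digestion can induce, 10 were abundant enough and none was 3-fold apart on both days. Of the 12 tested, 5 had an unadjusted p under 0.05 and 3 a positive log2 difference, and their summed level was 7175 and 7924 CPM in WT against 5844 and 5502 CPM in Ccr2-/-. Of 20 genes for NK ligands and survival cytokines, 5 were abundant enough in NK cells and none was 3-fold apart on both days.

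Between days, 0 of 11644 genes passed (0%) in the same edgeR fit with genotype as a covariate, 249 had an unadjusted p under 0.05, and DESeq2 called 2. The pool that stood apart was WT day 5. Tcf7, a factor of less differentiated lymphocytes, stood at 31.3 and 221 CPM in WT on days 3 and 5 and at 28.2 and 35.3 CPM in Ccr2-/-. Cd7 stood at 79.7 and 690 CPM in WT against 162 and 125 CPM in Ccr2-/-, Ltb (lymphotoxin β) at 18.2 and 200 CPM against 30.9 and 52.3 CPM, and Cd2 at 135 and 507 CPM against 185 and 156 CPM. For Tcf7, Cd7, Ltb and Cd2, WT day 5 was the single high pool. Read by cells, Tcf7 was found in 5.66% and 34.8% of thinned WT NK cells and in 2.38% and 6.40% of Ccr2-/- ones. Gzmb, in contrast, was lowest in WT day 5, with a WT level 4.70 times lower on day 5 than on day 3 and a Ccr2-/- level 0.785 times that of day 3. WT day 5 had 23 cells and no second pool, and the spread between mice is not known here. With WT day 3 or day 5 left out, 7 and 6 genes were called for the day, and 8 and 0 with Ccr2-/- day 3 or day 5 left out.

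The genotype difference was also compared between NK cells and T cells of the same pools, with the pool as a block. This fit leaves 1 residual degree of freedom, and its p-values do not measure the spread between mice or between replicate pools. On reads simulated as for the genotype fit, it found 34 of 200 genes changed 4-fold and 195 of 200 changed 16-fold. T cells numbered 45 and 15 in WT and 81 and 86 in Ccr2-/-. For 38 of 12136 genes (0.313%) the difference was not the same in the 2 cell types by edgeR (adjusted p under 0.05), higher in NK cells than in T cells for 6 and lower for 32; DESeq2 called 21. Ncr1, 1 of the 38, is a gate gene, so its value is no test. Of the other 37 (31 lower), 16 were among the 198 tested genes of the lists of function, 4 were markers of other cell types and 17 were in no list. Gzmb had a log2 difference of differences of 2.3 ± 0.28 (SE) and an adjusted p of 9.40e-13: in T cells it stood at 1064 and 472 CPM in WT against 374 and 1118 CPM in Ccr2-/-, with overlapping groups. Serpinb9 also had a positive value (2.56 ± 0.57, adjusted p of 0.00419), since in T cells it stood at 152 and 256 CPM in WT against 38.2 and 12.6 CPM in Ccr2-/-. Ccl3 and Ccl4 had negative values (-2.91 and -3.61, adjusted p of 2.31e-08 and 7.86e-12), with Ccl4 in T cells at 992 and 3.37 CPM in WT against 1511 and 2044 CPM in Ccr2-/-. Tyrobp and Fcer1g had negative values of -2.54 and -2.61, and T cells held 190 and 33.7 CPM of Tyrobp in WT against 319 and 476 CPM in Ccr2-/-. The T cells of the Ccr2-/- pools also held transcripts of mast cells (Cma1 at 2514 CPM on day 3) and of neutrophils (S100a8 at 1371 and 2757 CPM), and the part of these in the values was not tested. Without the WT day 5 pool no gene was called, without the WT day 3 pool 1 was, and without the Ccr2-/- day 3 or day 5 pool 13 and 12 were.

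Summed markers of neutrophils, of monocytes and macrophages and of dendritic cells differed between the genotypes in NK cells in the same direction as in all other cells. Keratinocyte markers did not on day 3, at 3.13 CPM in WT and 9.55 CPM in Ccr2-/- NK cells against 789 and 151 CPM in all other cells. The part of these and other such markers in the levels above was not tested. The summed level of 8 neutrophil markers was 75 and 74.8 CPM in WT NK cells and 393 and 1356 CPM in Ccr2-/- ones, against 894 and 482 CPM and 1868 and 4364 CPM in all other cells. S100a8 stood at 5.73, 6.36, 136 and 346 CPM, and 1 cell gave 91.1% of its reads in Ccr2-/- day 3. Cells with at least 1000 CPM of S100a8 and S100a9 were 0, 0, 1 and 9 of the members. Of the 9 monocyte and macrophage markers, the sum was 284 and 256 CPM in WT against 64.1 and 86.1 CPM in Ccr2-/-, and of the 6 dendritic cell markers 762 and 374 CPM against 166 and 31.4 CPM. All other cells held 4464 and 5113 CPM in WT against 985 and 891 CPM in Ccr2-/- of the monocyte and macrophage markers. They held 1269 and 1504 CPM against 252 and 453 CPM of the dendritic cell markers. H2-Ab1 made most of the dendritic cell sum in NK cells, at 744 and 353 CPM in WT against 158 and 25.4 CPM in Ccr2-/-, and 1 cell gave 71.5%, 99.5%, 80.0% and 35.3% of it. Fibroblast markers summed to 868, 1074, 1089 and 1665 CPM, where all other cells held 32546 to 46058 CPM, and Col1a1 was found in 52.0% to 65.2% of thinned NK cells. Krt5 and Krt14 stood at 405 and 354 CPM in Ccr2-/- day 5, of which 1 cell gave 98.0% and 99.7%. Without the cells with S100a8 and S100a9 no gene passed the genotype fit either, with 482 at an unadjusted p under 0.05.

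Clustered without the gate genes, the 391 cells fell into 4 groups, which are a description. The first, 192 cells (49.1%), was led by transcripts that fibroblasts make (Saa3, Igfbp5, Bgn), and its NK genes were near those of the rest (Prf1 1142 CPM against 1103 CPM). The second, 29 cells (7.42%), was led by S100a9, S100a8 and H2-Eb1, held reads of a median of 2 of the 8 NK genes, and stays unnamed. Group 3, 94 cells (24%), was led by genes that included Itga2, Itgam, Ssh2 and Ms4a4b, with genes of mature circulating NK cells among them. It also held more Tcf7 (126 CPM against 29.6 CPM in the rest), the factor of less differentiated lymphocytes, Ltb (149 against 42.2 CPM) and Cd7 (272 against 149 CPM). Group 3 is therefore not named by maturity. It held more Ncr1 (827 CPM against 406 CPM in the rest), Nkg7 (2056 against 1242 CPM), Ifng (339 against 142 CPM) and Ccr2 (537 against 121 CPM). It held less Mki67 (14.5 against 235 CPM) and Gzmb (4197 against 6522 CPM). Group 4, 76 cells (19.4%), was led by Gzmd and by division genes (Aurkb, Cdk1, Top2a), with a median depth of 53431 reads. It held more Gzmb (7735 against 5228 CPM) and less Ncr1 (335 against 543 CPM) and Ifng (70.6 against 231 CPM). Group 3 made up 35.2% and 39.1% of WT NK cells and 16.7% and 19.4% of Ccr2-/- ones. Group 4 made up 16.7% of WT day 3, 0 of 23 cells of WT day 5, and 23.5% and 24% of the Ccr2-/- pools. Since the genes that define the groups differ between the pools, their sizes are not compared further. At a finer resolution (1 in place of 0.5) there were 8 groups. One of them, of 22 cells, held more of the fibroblast transcripts, with Saa3 at 4895 CPM against 59.6 CPM in the rest and Col1a1 at 2980 CPM against 186 CPM.

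**Figure D5:**
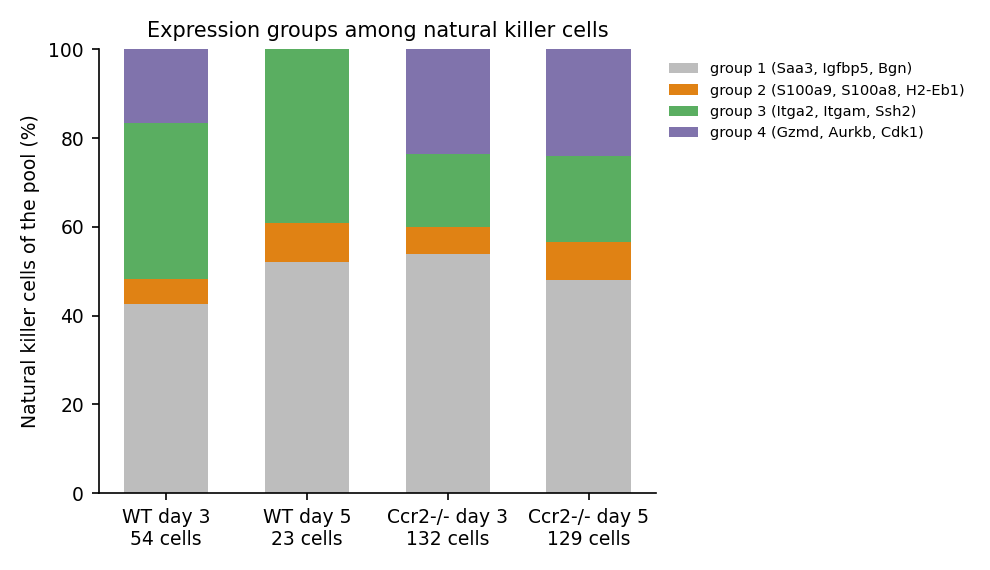
Share of each of the 4 expression groups among NK cells of each pool, as stacked bars that sum to 100% of the pool's NK cells. The group led by Itga2 and Itgam made up 35.2% and 39.1% of WT and 16.7% and 19.4% of Ccr2-/- NK cells, and the group led by Gzmd and division genes had no cell in WT day 5.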

How the data were processed

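Cells of ear skin lesions were labelled with hashtag antibodies, captured on BD Rhapsody and sequenced as 1 cDNA library and 1 hashtag library (TAS-Seq). Reads were trimmed by the authors (Cutadapt), aligned with Bowtie2 to mouse Ensembl RNA of GRCm38.p6, and deposited as whole-number counts per gene and per hashtag for barcodes above the knee-plot inflection; these are not unique molecules, and strand use in counting was not given in the sources used here. The study's methods describe a later subtraction of background reads and a removal of doublets, and it is not stated whether the deposited table had either. Mitochondrial reads were limited to 20% and genes to at least 200 per cell. A cell went to the pool whose hashtag count, divided by that hashtag's total, was at least 3 times the next (pseudocount 1, at least 10 hashtag reads); cells with several hashtags, which include doublets between pools, went to none, and no other doublet caller was run. Members were chosen by a rule on measured levels, so the genes of that rule carry no test, and the members and gene lists were chosen with earlier results of these data known. Counts were summed per pool and fitted with edgeR 4.0.16 (TMM, low-count filter, quasi-likelihood test, Benjamini-Hochberg adjustment over all genes tested), with DESeq2 1.42.0 as an alternative; the fits were tested on simulated data, with 2 to 8 false calls for genotype. Shares of cells with a read of a single gene were taken in cells thinned to 5000 reads, leaving out 1 and 0 NK cells of WT and 6 and 4 of Ccr2-/- (days 3 and 5). The shares of dividing cells and of cells with granzymes C to G were counted without thinning, so they depend on depth. Groups among members came from scanpy 1.11.5 (2000 variable genes, 20 components, Leiden resolution 0.5). Genes were named by their lists, by the 3-fold rule on both days, or as the 25 leading genes, and some genes counted in the lists are not reported here; positions are from GENCODE gene models of GRCm38 and upstream sequences from RefSeq. Pools are single samples, with no second pool of any genotype and day. The p-values of the fits rest on 1 residual degree of freedom and on a spread estimated over all genes. They do not measure the spread between mice or between replicate pools.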

Additional observations from a re-analysis of the deposited data

Results flagged for a closer look

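For 20 listed genes, the genotype difference (log2, Ccr2-/- minus WT) in NK cells minus that in T cells passed an adjusted p of 0.05 (edgeR's quasi-likelihood test). Among granule and receptor genes the values were 2.3 for Gzmb, 2.56 for Serpinb9, -5.38 for Klra3, -2.54 for Tyrobp, -2.61 for Fcer1g and -11.39 for Fcgr3. Among secreted products and their receptors they were -2.91 for Ccl3, -3.61 for Ccl4, -3.05 for Ccl7, -5.33 for Osm and 7.76 for Il2ra. Division genes had -4.82 for Birc5, -2.69 for Mki67 and -3.23 for Stmn1, and the immediate early genes had -1.58 for Fos and -2.68 for Jun. Markers of other cells had -7.31 for Cma1, -5.83 for Mcpt4, 9.10 for Mcpt8 and -4.43 for H2-Ab1. A group at 0 CPM stands behind several of these, so the fitted value is no measure of size: T cells had no Fcgr3 read in either WT pool, WT NK cells had no Il2ra read, and no Mcpt8 read was found in WT NK cells or in T cells of WT day 5. T cells of WT day 5 numbered 15, and the largest values lean on few cells: Mcpt4 stood at 2694 CPM in T cells of Ccr2-/- day 3 and at 5.96 to 12.7 CPM in the other T cell pools. A Gzmb value of the same sign was found in all 17 alternatives (1.27 to 3.36), with an adjusted p under 0.05 in 14 of them. Outside the main measurement, 9 hashtag columns that belong to no pool held 14422 reads in all (0.0276% of hashtag reads, 1 to 8943 per column), against 4001613 to 23801136 reads in the columns of the 4 pools.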

How the results depend on the processing

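The mean WT to Ccr2-/- ratio of Ccr2 in NK cells was 14.4 with a hashtag ratio of 10 and 7.98 as a mean of cells, and 5.84 to 15.3 with 1 pool left out. Genotype calls were 1 with limits of 100 CPM of Ncr1 or 3000 CPM of Gzma, 6 without cells with Trac, 5 without cells over 100000 reads, 3 at a mitochondrial limit of 10%, 1 with at least 3 of 8 NK genes, 2 with cells weighted equally, 3 with library size only, 41 without a filter on low counts, 16 with DESeq2, and 2 (without WT day 5) to 284 (without WT day 3) with 1 pool left out. Day calls were 1 without cells with Trac, 20 without a filter, 2 with DESeq2 and 0 to 8 with 1 pool left out. Calls that NK and T cells differ in the genotype difference were 21 with DESeq2 and 0 to 13 with 1 pool left out. For Mcpt4 this difference ranged from -8.01 to 0.46 (without Ccr2-/- day 3) and for Mcpt8 from -4.62 (without WT day 3) to 8.80 with 1 pool left out and to 9.63 (hashtag ratio of 10) over all alternatives. Members fell into 8 groups at resolution 1. Over the alternatives of single genes, 551 values kept their direction and side of the threshold, 89 became weaker, 41 stronger, 7 moved and 9 changed sign; the causes were not tested. In the genotype fit, S100a9 changed sign to -0.027 without S100a8 and S100a9 cells and H2-Ab1 to 0.70 with a hashtag ratio of 10. Ifng did so to 0.035 with that ratio and 0.39 with cells weighted equally, and ranged from -0.65 to 0.48 with 1 pool left out. The day difference of Gzmb ranged from -3.05 to 0.14 with 1 pool left out, and was positive without WT day 5 or Ccr2-/- day 3. The alternatives that require 3 NK genes, leave out S100a8 and S100a9 cells, weight cells equally or use Ncr1 alone were chosen after seeing the data. No paired analysis was possible because the pools of the 2 genotypes share no replicate numbers; NK and T cells of 1 pool were blocked by pool. Depth limits WT day 5 most, with 23 cells and 628720 reads.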

Other observations

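Cma1, which encodes the mast cell protease chymase 1 and lies at chr14:55941451-55944675, upstream of the granzyme block in coordinate order, was read in many NK cells. It stood at 104 and 224 CPM in WT and at 253 and 275 CPM in Ccr2-/- on days 3 and 5. In cells thinned to 5000 reads, 24.5% and 21.7% of WT NK cells and 34.1% and 33.6% of Ccr2-/- NK cells held a read, against 6.25% and 1.55% and 2.52% and 1.22% of fibroblasts of the same pools. These fibroblasts, too, were chosen without a Ptprc read, so their share may be too low as a background. Mcpt4, another mast cell protease gene of the same chromosome (chr14:56059629-56062313), was nearer to its share in fibroblasts. It was read in 5.66%, 8.70%, 7.94% and 4% of NK cells against 2.78%, 5.43%, 4.32% and 3.66% of fibroblasts. In all other cells of the pools, the levels of Cma1 (74.6 to 394 CPM) and Mcpt4 (117 to 500 CPM) were of like size. The single cell with most Cma1 reads gave 10% to 39.0% of them in a pool. T cells held 0 to 16.5 CPM of Cma1 in 3 pools and 2514 CPM in Ccr2-/- day 3, where they also held 2694 CPM of Mcpt4. Cma1 was picked out for this after its values were seen.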
